A study of Mus musculus with 12 samples.

Results

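The 40 genes described here are p53 (Trp53), its inhibitors, the direct transcriptional targets of p53, and the kinases, mediators and repair proteins of the DNA damage response. They were taken by symbol from a list of known pathway members, and all 40 were found among the 24421 genes of the table and carried an adjusted p-value, which 12972 genes did. The study concerns H1 linker histones, the proteins that bind nucleosomes at the entry and exit of DNA and compact chromatin. Polyadenylated RNA was sequenced with paired ends from B, CD4 T and CD8 T cells of the spleen of C57BL/6 mice, in 12 samples of 6 groups. The genotypes are named WT and cTKO, and each group held 1 female and 1 male mouse. Samples were sorted by flow cytometry to 500000 cells. The table used compares cTKO with WT in CD8 T cells, so 4 libraries stand behind each value. The labels do not spell out cTKO and give neither the ages of the mice nor a Cre driver, so the cells in which the H1 genes were lost are not known from them. In these libraries Hist1h1c had 41 and 56 reads in WT, Hist1h1e had 64 and 112, and Hist1h1d had 5 and 11, while all of these H1 genes had 0 reads in both cTKO libraries.

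In an unstressed cell p53 is made and rapidly destroyed, chiefly by the ubiquitin ligase MDM2, with MDM4 as a partner that also blocks its activity. Breaks and stalled forks activate the kinases ATM, ATR and DNA-PKcs, which, directly and through CHK1 and CHK2, phosphorylate p53, release it from MDM2 and let it switch on genes for cell cycle arrest, cell death, nucleotide supply and repair. In T cells this pathway is active during V(D)J recombination in the thymus and limits the expansion of activated clones. p53 itself is controlled largely at the protein level, so the RNA of its targets and not that of Trp53 is the usual readout of its activity.

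p53 binds a pair of decamers placed head to tail. The stretch from 250 bases before to 50 bases after the annotated start was searched for 32 of the 40 genes, in 39 windows (RefSeq, GRCm38.p6). Pmaip1 was among the genes not searched. Both strands were searched for the p53 response element consensus as an unspaced pair. The core C and G of each decamer were kept, and at most 3 mismatches of 20 bases were allowed. A match was found in 8 of the 39 windows (20.5%), against 453 of 32851 windows of the same length (1.38%). The members were listed as p53 genes, some of them because of these elements, so the share describes the list and was not tested. The median GC content was 62% in the members' windows and 52.7% in all windows. The windows with a match belonged to 7 genes, and 1 site per gene is shown, with capitals marking the 20 bases of the match. The sites come from the consensus search alone, and whether p53 acts through them was not tested.

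Cdkn1a, chr17:29090923-29090952, plus strand, 1 mismatch: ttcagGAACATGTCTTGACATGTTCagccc
Ccng1, chr11:40755457-40755486, minus strand, 1 mismatch: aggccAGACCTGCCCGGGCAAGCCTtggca
Trp53, chr11:69580279-69580308, plus strand, 3 mismatches: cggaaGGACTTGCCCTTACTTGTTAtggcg
Bbc3, chr7:16309481-16309510, plus strand, 3 mismatches: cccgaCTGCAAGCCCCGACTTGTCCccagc
Aen, chr7:78895932-78895961, plus strand, 3 mismatches: aagccGGGCTTGTCCGGGCAAGGAGcttcc
Tigar, chr6:127109741-127109770, minus strand, 3 mismatches: gcggcGGTCTAGCTCTGGCAAGACTccagg
Sesn1, chr10:41887261-41887290, plus strand, 3 mismatches: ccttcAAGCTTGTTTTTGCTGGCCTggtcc

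The closest matches were those of Cdkn1a, which starts 51 bases before a start site, and of Ccng1, which starts 195 bases before one. Of these 7 genes, the authors' deposited table has Cdkn1a called higher, Sesn1 lower and the other 5 neither. A match is a stretch of letters in this window and does not show binding in T cells.

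The deposited table gives 1 mean over all 4 libraries for each gene. Whole reads per library were recovered from it for all 40 members and are given below as normalized reads, that is, reads divided by the size factor of the library. The libraries are called the larger and the smaller of each genotype by their size factors, of 1.214423 and 0.866028 (WT) and of 1.207396 and 0.804969 (cTKO). Which of them came from the female and which from the male was not worked out. The larger cTKO library stood apart in 2 respects. It alone held a read for 1165 genes with a single read in all, against 97 to 156 genes for each other library. Its reads also rose with the length of a gene's exons, as described with the kinases below.

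Of the 40 members, 9 were called higher in cTKO by the authors' deposited table with its adjusted p under 0.05 (22.5%), against 9.77% of all tested genes. A single member was called lower (2.5%), against 3.61% of all tested genes. The cTKO pair lay wholly above the WT pair for 18 members (45%, against 31.5% of 12758 genes with recovered reads) and wholly below it for 6 (15%, against 28.1%). The authors' deposited table gives a median log2 difference of 0.44 for the members and 0.04 for all tested genes. Since the RNA came from sorted bulk samples, a change in the number of cells that express a gene and a change in RNA per cell cannot be told apart for any member.

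**Figure D1:**
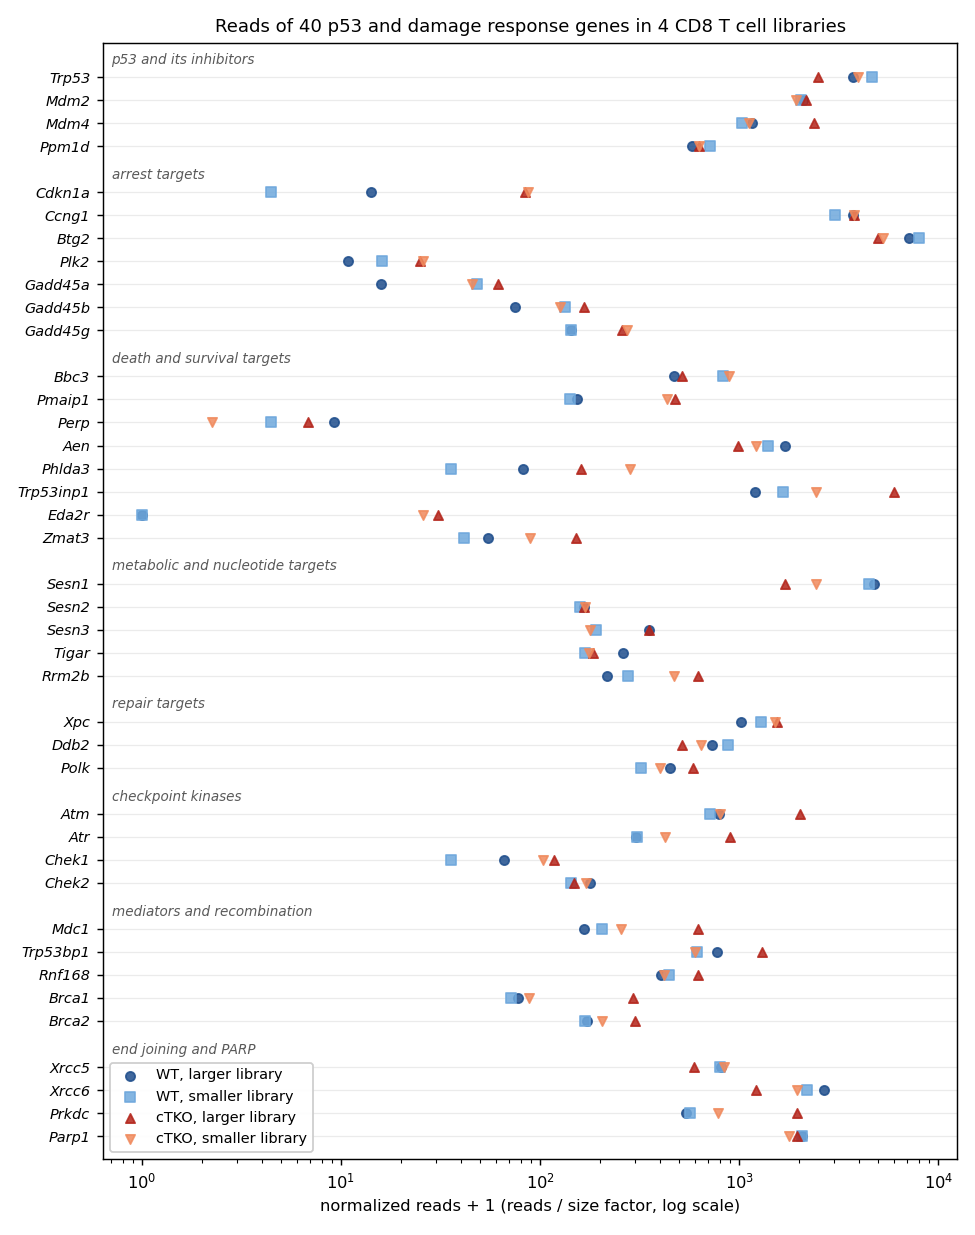
Normalized reads plus 1 (log axis) of the 40 members in each of the 4 CD8 T cell libraries, grouped by role, with 1 symbol per library. Cdkn1a, Eda2r, Pmaip1 and Phlda3 are higher in both cTKO libraries, while Mdm4, Atm, Trp53bp1 and Brca1 are high in the larger cTKO library and near WT in the smaller one.

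**Figure D2:**
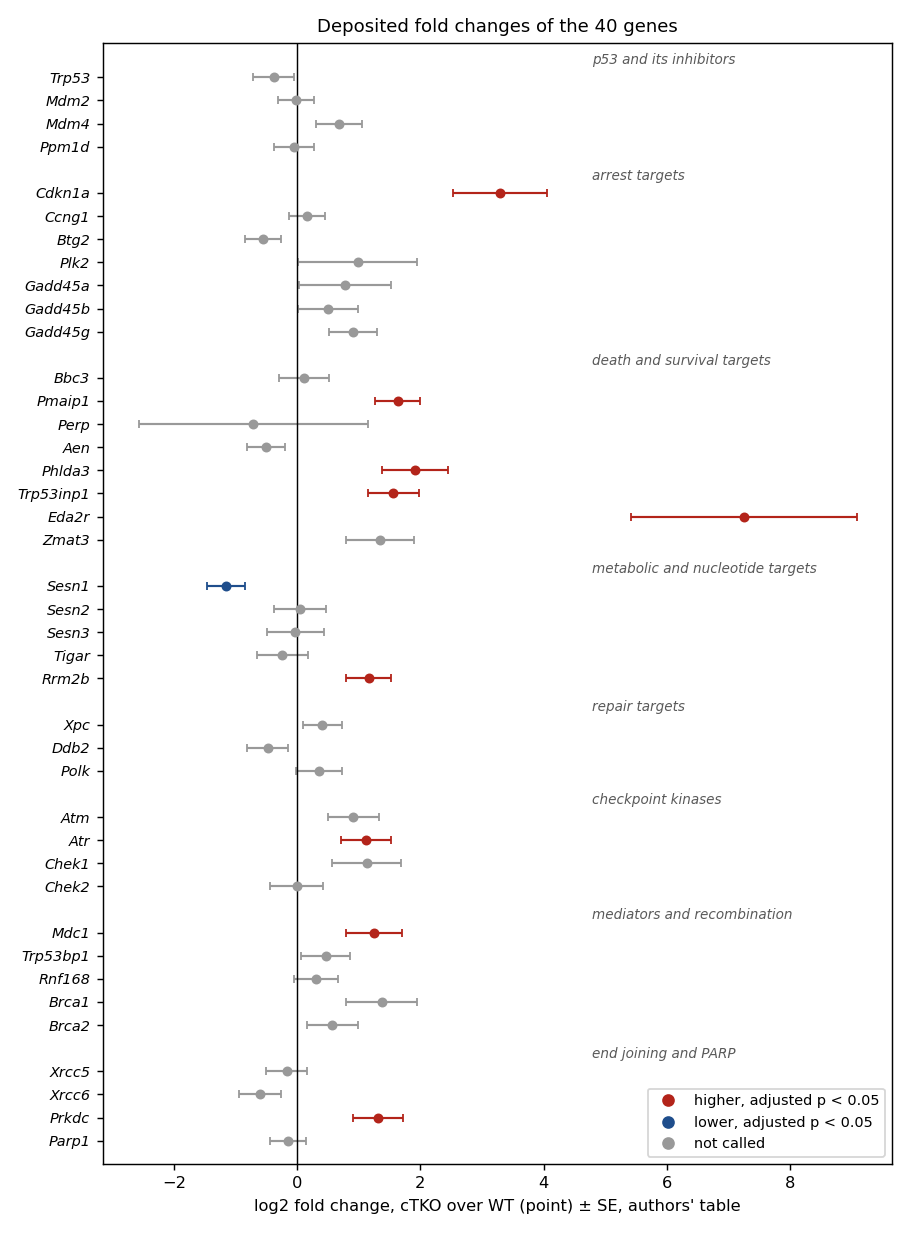
Log2 fold change of cTKO over WT with its standard error (bars) for each member, from the authors' deposited table, coloured by call at an adjusted p under 0.05. The 9 members called higher range from 1.12 for Atr to 7.25 for Eda2r, and Sesn1 is the 1 member called lower.

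p53 and its inhibitors were not called: 0 of 4 passed in the authors' deposited table, with 0 at an unadjusted p under 0.05 and 0 by limma. Trp53 had 3718 and 4659 normalized reads in the larger and the smaller WT library and 2494 and 3942 in the larger and the smaller cTKO library, and the same order of libraries is kept below. The groups overlapped for Trp53, and the authors' deposited table gives −0.38 ± 0.33 (SE) on a log2 scale, at an adjusted p of 0.494. Mdm2, the main ubiquitin ligase of p53 and itself a classic p53 target, had 2101 and 2040 normalized reads in WT against 2163 and 1921 in cTKO. The 4 libraries were nearly level for Mdm2, and the authors' deposited table lists −0.02 ± 0.29 (log2, adjusted p = 0.976).
Ppm1d, the phosphatase WIP1 that reverses the marks set by ATM and is also a p53 target, had 580 and 714 normalized reads in the WT pair, and 625 and 624 in the cTKO pair, with overlapping groups. Mdm4 had 1159 and 1032 normalized reads in WT against 2381 and 1123 in cTKO. The larger cTKO library alone was high for Mdm4, the smaller lay within the WT values, and the authors' deposited table gives it 0.68 ± 0.38 (log2, adjusted p = 0.245).

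Among the 7 targets linked to growth arrest, Cdkn1a, which encodes the cyclin-dependent kinase inhibitor p21, rose. Cdkn1a (chr17:29090979-29100722, GRCm38.p6) had 13.2 and 3.46 normalized reads in WT, from 16 and 3 reads, and 82.8 and 85.7 in cTKO, from 100 and 69 reads. The 2 cTKO libraries were level with each other and far above both WT libraries. The authors' deposited table lists a log2 difference of 3.29 ± 0.76 for Cdkn1a (adjusted p = 0.000375). With limma on the recovered reads the adjusted p of Cdkn1a was 0.00583, and it was 0.0155 without the larger cTKO library, 0.00583 without the smaller cTKO library, 0.00517 without the larger WT library and 0.0365 without the smaller WT library.
Per kilobase of exon, Cdkn1a rose from 3.06 normalized reads in WT to 31 in cTKO, a level that stayed far under the 1075 of Ccng1, the cyclin G1 target, in the same cells.

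The other 6 arrest targets were not called. Ccng1 had 3727 and 3041 normalized reads in WT and 3763 and 3786 in cTKO, so the groups were separate by a narrow margin, and the authors' deposited table gives 0.16 ± 0.29 (log2, adjusted p = 0.782). Btg2, an antiproliferative protein of resting lymphocytes, had 7160 and 7959 normalized reads in WT and 4983 and 5287 in cTKO. For Btg2 both cTKO libraries were low, and the −0.56 ± 0.29 (log2) of the authors' deposited table did not pass, at an adjusted p of 0.192.
The Gadd45 genes encode small stress sensors that bind kinases and the replication clamp PCNA. Gadd45g had 142 and 142 normalized reads in WT against 258 and 273 in cTKO. The genotypes did not overlap for Gadd45g, with both cTKO libraries high, and the authors' deposited table gives 0.90 ± 0.39 (log2) at an adjusted p of 0.113. With limma after the removal of the length trend of each library its log2 fold change was 1.22 (adjusted p = 0.0396). Gadd45a (14.8 and 47.3 normalized reads in WT, 60.5 and 44.7 in cTKO) and Gadd45b (74.1 and 133 in WT, 165 and 125 in cTKO) had overlapping groups. Plk2, a polo-like kinase, was low, at 9.88 and 15 normalized reads in WT against 24 and 24.8 in cTKO, and the authors' deposited table gives an adjusted p of 0.556.

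Of the death and survival targets, 4 of 8 rose, against 9.77% of all tested genes, and none fell (also at an unadjusted p under 0.05 and by limma), and the authors' deposited table gives them a median log2 difference of 1.45. Eda2r, a receptor of the tumour necrosis factor family, was the member with the sharpest contrast. Eda2r (chrX:97333837-97377234) had 0 reads in both WT libraries and 36 and 20 reads in cTKO, or 29.8 and 24.8 normalized reads. Against a floor of 3 reads over both WT libraries this is at least 19.3-fold higher in cTKO. The 7.25 ± 1.83 (log2, adjusted p = 0.00137) of the authors' deposited table is a fitted value and no bound, because WT is at 0. With limma Eda2r had an adjusted p of 0.00133, and between 0.00122 and 0.00763 when any 1 library was left out.
Even in cTKO, Eda2r reached only 5.7 normalized reads per kilobase of exon.

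Pmaip1, which encodes the BH3-only death protein NOXA, had 153 and 140 normalized reads in WT against 474 and 431 in cTKO. The libraries of each genotype were close to each other, and both cTKO libraries were high. The authors' deposited table gives Pmaip1 a log2 difference of 1.63 ± 0.37 with the lowest adjusted p of the 40, 0.000231. With limma the adjusted p of Pmaip1 was 0.00899, and 0.0158 without the larger cTKO library. The call was lost with a single WT library left, at 0.108 without the larger and 0.102 without the smaller, although the log2 fold change stayed at 1.69 and 1.56.

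Phlda3 encodes a small lipid-binding protein that competes with the survival kinase AKT at membranes. Phlda3 (chr1:135766085-135769134) had 81.5 and 34.6 normalized reads in WT against 159 and 283 in cTKO. The cTKO pair was above the WT pair, and here the smaller cTKO library was the higher of the pair. The authors' deposited table gives Phlda3 1.91 ± 0.53 (log2, adjusted p = 0.00496). With limma its adjusted p was 0.0268, 0.0153 without the larger cTKO library and 0.238 without the smaller WT library.

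Trp53inp1, a p53-induced nuclear protein of cell death and autophagy, reached the highest level of the risen targets, 778 normalized reads per kilobase of exon in cTKO. Trp53inp1 (chr4:11156441-11174379) had 1196 and 1663 normalized reads in WT and 5967 and 2440 in cTKO. Both cTKO libraries were above WT, the larger by much more than the smaller, with a log2 difference from the WT mean of 2.06 and 0.77. The authors' deposited table lists 1.56 ± 0.41 (log2, adjusted p = 0.00222). With limma the adjusted p of Trp53inp1 was 0.0313, but 0.136 without the larger cTKO library and 0.193 without the larger WT library.

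The other 4 death and survival targets were not called. Bbc3, which encodes PUMA, the other BH3-only protein induced by p53, had 472 and 828 normalized reads in WT and 517 and 885 in cTKO, with overlapping groups, and the authors' deposited table lists 0.11 ± 0.40 (log2, adjusted p = 0.896). Zmat3, an RNA-binding zinc finger protein, had 53.5 and 40.4 normalized reads in WT and 150 and 88.2 in cTKO. Zmat3 was high in both cTKO libraries, and the 1.34 ± 0.55 (log2) of the authors' deposited table did not pass, at an adjusted p of 0.0879. Aen, an apoptosis-enhancing nuclease, had 1699 and 1399 normalized reads in WT and 981 and 1215 in cTKO, with both cTKO libraries low and the authors' deposited table gives an adjusted p of 0.314. Perp, a membrane protein of epithelial junctions, had only 10, 3, 7 and 1 reads and gives no comparison at this depth.

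Of the 5 metabolic and nucleotide targets, Rrm2b rose, Sesn1 fell and 3 were not called. Rrm2b, the p53-inducible subunit of ribonucleotide reductase that supplies deoxynucleotides outside S phase, had 217 and 275 normalized reads in WT and 622 and 472 in cTKO. Both cTKO libraries were high for Rrm2b (chr15:37923952-37961119), and the authors' deposited table lists 1.16 ± 0.36 (log2, adjusted p = 0.0162). With limma its adjusted p was 0.0426, and it was called no longer without the larger cTKO library (0.0955), the larger WT library (0.515) or the smaller WT library (0.186), with log2 fold changes of 0.96, 0.98 and 1.32 in these fits.

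Sesn1, a sestrin that restrains the growth kinase mTORC1, fell, and was the 1 member called lower. Sesn1 (chr10:41810574-41908436) had 4739 and 4488 normalized reads in WT against 1701 and 2421 in cTKO. The cTKO pair was clearly below the WT pair. The authors' deposited table lists −1.16 ± 0.31 (log2, adjusted p = 0.00308), and limma gave an adjusted p of 0.0184. The call was lost without the larger cTKO library (0.0562), the larger WT library (0.203) or the smaller WT library (0.106), with log2 values from −1.23 to −0.93 in these 3 fits. Its relatives did not share the direction: Sesn2 had 166 and 158 normalized reads in WT against 166 and 168 in cTKO, and Sesn3 had 350 and 191 in WT and 351 and 178 in cTKO. Both overlapped, and the authors' deposited table gives them 0.04 and −0.03 (log2). Tigar, a phosphatase that damps glycolysis, had 259 and 167 normalized reads in WT and 184 and 176 in cTKO, also overlapping.

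None of the 3 targets in repair was called, with 0 of 3 at an adjusted or an unadjusted p under 0.05 in the authors' deposited table and 0 by limma. Xpc and Ddb2 recognize bulky and ultraviolet lesions for nucleotide excision repair. Xpc had 1014 and 1285 normalized reads in WT and 1551 and 1511 in cTKO, with both cTKO libraries high. Ddb2 had 733 and 874 in WT and 513 and 644 in cTKO, with both low. Polk, a translesion polymerase, had 448 and 322 in WT and 583 and 399 in cTKO, with overlap.

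Of the 4 checkpoint kinases, Atr alone was called higher in the authors' deposited table, and none by limma. Atr, the kinase of stalled replication forks (chr9:95857597-95953217), had 303 and 306 normalized reads in WT and 899 and 424 in cTKO. Both cTKO libraries were above WT, and the larger was 2.12 times the smaller. The authors' deposited table lists Atr at 1.12 ± 0.41 (log2, adjusted p = 0.0455). With limma it was not called (adjusted p = 0.101), and without the larger cTKO library its log2 fold change was 0.48 (0.386).
Atm, the kinase of double-strand breaks, had 787 and 711 normalized reads in WT against 2020 and 800 in cTKO. The smaller cTKO library lay barely above WT, and Atm was not called in the authors' deposited table (log2 0.91 ± 0.41, adjusted p = 0.129). Chek1, the kinase that ATR activates, had 65.1 and 34.6 normalized reads in WT and 117 and 103 in cTKO, with both cTKO libraries high, and did not pass in the authors' deposited table (log2 1.13 ± 0.56, adjusted p = 0.172). Chek2 had 178 and 142 normalized reads in WT against 147 and 170 in cTKO and did not separate the genotypes.

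Prkdc encodes DNA-PKcs, the kinase that joins broken ends together with the KU proteins. Prkdc (chr16:15637444-15842239) had 542 and 568 normalized reads in WT against 1956 and 786 in cTKO. The larger cTKO library was 2.49 times the smaller, and both were above WT. The authors' deposited table gives Prkdc 1.31 ± 0.41 (log2, adjusted p = 0.0168), while limma gave an adjusted p of 0.0764, and a log2 fold change of 0.51 without the larger cTKO library (0.299). Its partners were not high: Xrcc6 (KU70) had 2671 and 2178 normalized reads in WT against 1216 and 1953 in cTKO, and Xrcc5 (KU80) had 810 and 799 in WT and 591 and 837 in cTKO. Xrcc6 was low in both cTKO libraries and Xrcc5 in the larger one, and neither was called (adjusted p = 0.232 and 0.788 in the authors' deposited table). Parp1, the sensor of single-strand breaks, had 2054 and 2065 normalized reads in WT and 1950 and 1768 in cTKO, slightly low in both and not called.

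Among the mediators and recombination proteins, Mdc1 rose in the authors' test. Mdc1, the scaffold that binds phosphorylated H2AX at breaks (chr17:35841495-35859670), had 166 and 203 normalized reads in WT against 620 and 253 in cTKO. The cTKO pair was above WT, and the larger was 2.44 times the smaller. The authors' deposited table lists 1.25 ± 0.45 (log2, adjusted p = 0.0465), and with limma the adjusted p was 0.106, and 0.455 without the larger cTKO library, at a log2 fold change of 0.48. Brca1, which acts in end resection and homologous recombination, had 76.6 and 70.4 normalized reads in WT against 292 and 87 in cTKO. The larger cTKO library carried almost the whole difference for Brca1, which was not called in the authors' deposited table (log2 1.37 ± 0.57, adjusted p = 0.0918). Trp53bp1, which protects ends from resection, had 770 and 613 in WT and 1307 and 598 in cTKO, and Brca2, a mediator of homologous recombination, had 171 and 167 in WT and 299 and 204 in cTKO. Rnf168, the ubiquitin ligase that recruits 53BP1, had 402 and 441 in WT and 622 and 417 in cTKO. The larger cTKO library was the highest of the 4 for Trp53bp1, Brca2 and Rnf168, and the smaller was within the WT range for Rnf168, above it for Brca2 and below it for Trp53bp1.

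The gap between the 2 cTKO libraries followed exon length. For 8825 tested genes whose mean was 100 or more, cut by exon length into 5 classes of equal size, the median log2 ratio of the larger to the smaller cTKO library was −0.60, −0.30, −0.06, 0.20 and 0.60 from the shortest to the longest class. The same medians for WT lay between 0.01 and 0.08. Over the 33 members with such a mean, Spearman's rho of exon length with the cTKO ratio was 0.78, and with the WT ratio 0.20, as a description of genes that share the same 4 libraries. The larger cTKO library exceeded the smaller by more than 2 times for 8 of these 33 members (24.2%), against 8.07% of the 8825 genes.
Prkdc (12647 exon bases), Atr (8211) and Mdc1 (7335) are in the longest class, as are Mdm4, Atm, Trp53bp1, Brca1, Brca2, Sesn3 and Zmat3. By contrast Cdkn1a (2718 exon bases) and Pmaip1 (2732) are in the second class and Phlda3 (1435) in the shortest. After the trend with exon length had been taken out of each library, limma gave log2 fold changes of 0.61 for Prkdc (adjusted p = 0.159), 0.62 for Atr (0.154) and 0.78 for Mdc1 (0.147). Cdkn1a, Eda2r, Phlda3, Pmaip1, Rrm2b and Trp53inp1 were called in that fit too. Of these, Trp53inp1 (5404 exon bases) lies just short of the longest class, which begins at 5434 bases. Its larger cTKO library was 2.45 times the smaller, and it passed narrowly in that limma fit (log2 1.29, adjusted p = 0.045).

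**Figure D3:**
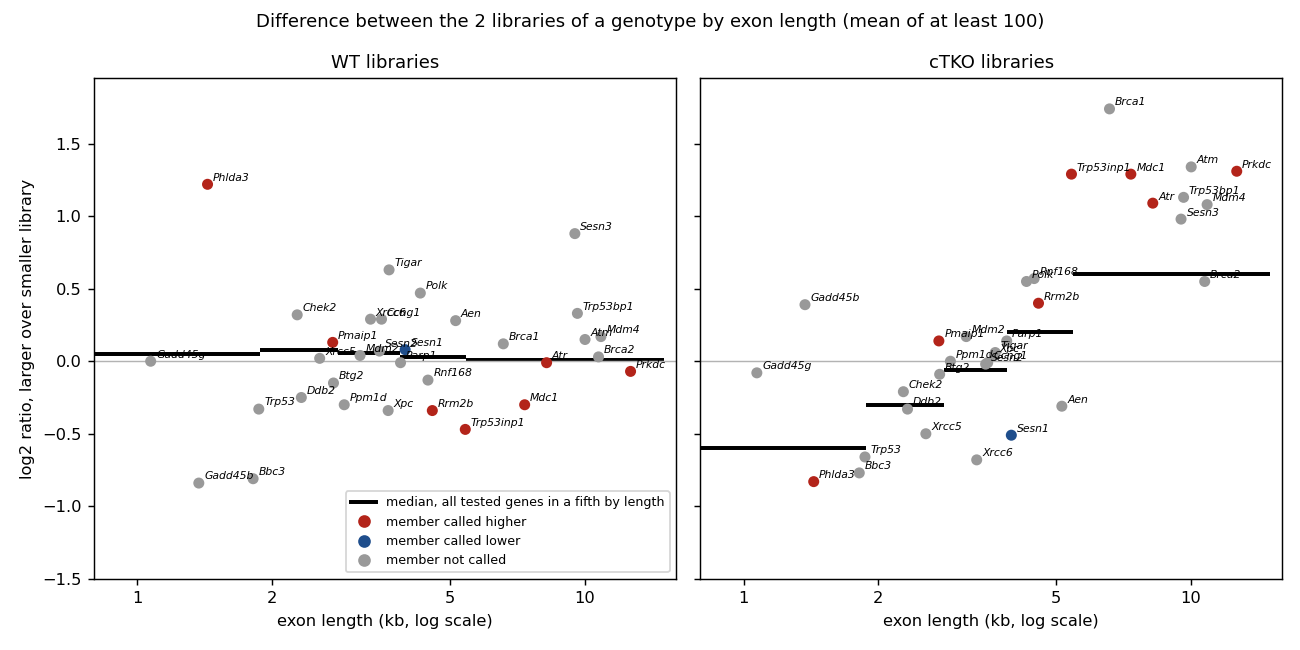
Log2 ratio of the larger to the smaller library within WT (left) and within cTKO (right) against exon length in kilobases (log axis), for the 33 members whose mean was 100 or more, with black bars for the median of all tested genes in each of 5 length classes. In cTKO the bars climb from −0.60 to 0.60 and the long members Prkdc, Atm, Mdc1, Atr and Brca1 lie above them, while the WT bars stay between 0.01 and 0.08.

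**Figure D4:**
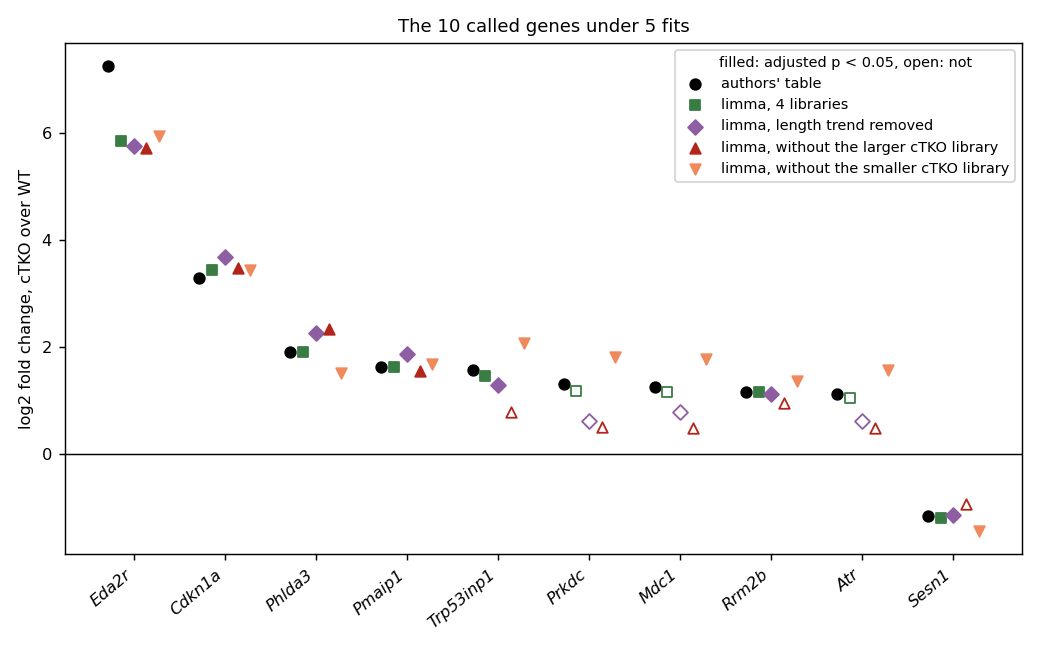
Log2 fold change of cTKO over WT of the 10 called members in the authors' deposited table and in 4 limma fits, with filled symbols for an adjusted p under 0.05. Eda2r, Cdkn1a, Phlda3 and Pmaip1 are filled in all 5 fits shown, whereas Prkdc, Mdc1 and Atr are filled only in the authors' table and in the fit without the smaller cTKO library.

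In WT cells the members spanned a wide range of levels per kilobase of exon. Btg2 was the highest, at 2610 and 2902 normalized reads per kilobase in the 2 WT libraries, ahead of Trp53 at 1990 and 2494, and these neighbours did not overlap. At the low end, Eda2r was at 0, and Perp (4.22 and 1.77), Cdkn1a (4.85 and 1.27) and Plk2 (3.53 and 5.36) overlapped with one another. In cTKO, Cdkn1a at 30.5 and 31.5 was above Plk2 at 8.58 and 8.87, which was in turn above Perp at 2.97 and 0.636.

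Of 123 further genes listed for the pathway, 122 were found and 117 tested in the authors' deposited table. Of these, 10 were called higher and 5 lower, shares near the 9.77% and 3.61% of all tested genes, with a median log2 fold change of 0.11. With limma 5 were called higher and 2 lower, and the count of higher genes was 1 without the larger cTKO library and 0 without the larger WT library, where 11 had an unadjusted p under 0.05.
The list of other p53 targets had 3 of 22 tested genes higher and 1 lower. Apaf1, the core of the apoptosome, had 263 and 275 normalized reads in WT but 1667 and 513 in cTKO, and the authors' deposited table lists it at 2.02 ± 0.47 (log2, adjusted p = 0.000348). Polh, a translesion polymerase, and Dcxr, a carbonyl reductase, were the other two, and the authors' deposited table gives them 1.75 and 1.89 (log2), while Plk3, a stress-induced polo-like kinase, fell by 1.60. All cTKO libraries were above all WT libraries for the first 3 of these genes, and below for Plk3.
Of 14 tested p53 regulators, the acetyltransferase gene Ep300 was higher (1.27) and Ppp1r13b, which encodes the p53 cofactor ASPP1, lower (−1.09), by the log2 values of the authors' deposited table. Ep300 had 2516 and 981 normalized reads in cTKO against 719 and 734 in WT.

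The damage sensors and checkpoint mediators had 3 of 19 higher and 2 lower in the authors' deposited table. Clspn (1.81), the claspin that couples ATR to CHK1, Wee1 (1.37), the kinase that holds back CDK1, and Hus1 (1.25), a subunit of the 9-1-1 clamp, were higher in the log2 values of the authors' deposited table. Rad9a (−0.91), another subunit of the same clamp, and Nbn (−1.01), a subunit of the MRN complex, were lower in the authors' deposited table. In the list of homologous recombination and Fanconi anaemia, Fancm (1.16) was higher and none of 26 genes lower, at an adjusted or an unadjusted p under 0.05 in the authors' deposited table. End joining had 1 of 10 lower (Tdp1, −0.94) and excision and mismatch repair 1 of 26 higher (Neil3, 1.59) in the authors' deposited table.

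Other gene groups also differed between the genotypes, some upwards and some downwards, and their part in the results was not tested. For comparison with the counts of each list below, 9.77% of all tested genes were called higher and 3.61% lower. The cTKO pair lay wholly above the WT pair for 31.5% of the tested genes with recovered reads. Of 33 cell cycle genes, 11 were called higher and none lower in the authors' deposited table (6 and 0 by limma, and 0 lower at an unadjusted p under 0.05), with a median log2 fold change of 0.71. The summed normalized reads of this list were 30153 and 24451 in WT and 38938 and 29479 in cTKO, and by these sums the smaller cTKO library lay within the WT range and the larger above it. Each of the 11 called genes was nevertheless above both WT libraries in the smaller cTKO library too, and the cTKO pair lay wholly above the WT pair for 17 of the 33. The median log2 difference from WT was 0.32 in the smaller and 1.23 in the larger cTKO library. Of 22 tested early response and handling genes, 11 were lower and 1 higher in the authors' deposited table, with a median of −1.10 and summed normalized reads of 44026 and 49767 in WT and 27983 and 34075 in cTKO. This list moved in both cTKO libraries, as Sesn1 and Plk3 did.
Most markers of natural killer cells were higher, with 6 of 11 called higher and 1 lower in the authors' deposited table. The cTKO pair lay wholly above the WT pair for 8 of the 10 with recovered reads. Their summed normalized reads were 3034 and 2968 for the WT pair, against 13430 and 10634 for the cTKO pair. These sums leave out 1 gene without recovered reads, Nkg7. Its mean over the 4 libraries was 34767 normalized reads, above each of these sums. Nkg7 was not called, and the authors' deposited table gives it 0.16 (log2, adjusted p = 0.792). Among the 10 with recovered reads, Eomes (4757 and 4719) and Gzma (3093 and 2347) had the highest cTKO values. The marker called lower was Fcer1g (log2 −2.70), which fell from 77.4 and 47.3 normalized reads in the WT pair to 8.28 and 11.2 in the cTKO pair. Ncr1, a receptor of natural killer cells, had 1.65 and 4.62 normalized reads in WT, then 18.2 in the larger and 1.24 in the smaller cTKO library. The myeloid and dendritic markers had 2 of 7 tested genes higher (Itgam and Itgax) and none lower. Their summed normalized reads were 166 and 161 in WT and 2530 and 873 in cTKO. Itgax made up most of the cTKO sums, with 46.1 and 50.8 in WT and 2012 and 632 in cTKO. Several myeloid markers had most of their reads in the larger cTKO library: S100a8 had 18.2 and S100a9 15.7 normalized reads there and 0 in the other 3 libraries, and Csf1r had 1.65 and 3.46 in WT, then 20.7 and 7.45 in cTKO. Lyz2 had 16.5 and 12.7 normalized reads in WT, then 35.6 and 7.45 in cTKO. Other markers of this list did not follow: Xcr1 was nearly level, at 69.2 and 55.4 in WT and 61.3 and 53.4 in cTKO. Cd14 and Clec9a had at most 2 reads in any library, with more in WT.
None of the 9 CD8 T cell markers was called, with 1 lower at an unadjusted p under 0.05, and for Cd8a the authors' deposited table gives −0.32 (log2, adjusted p = 0.539). Of 8 tested B cell markers, 1 was called lower (Cd79b), and the cTKO pair lay wholly below the WT pair for 2. The B cell list summed to 1651 and 1217 normalized reads for the WT pair, against 1022 and 363 for the cTKO pair. Cd79b made up most of both WT sums, falling from 1327 and 880 to 146 and 180. Cd22 made up most of the larger cTKO sum, at 748, against 47.2 in the smaller cTKO library and 171 and 151 for WT. Cr2 was also high in the larger cTKO library alone, at 33.1 against 8.7, with 1.65 and 9.24 for WT. These sums thus rest on few genes and show no fall of the whole list. Markers of CD4 and regulatory T cells had 1 of 5 higher (Zbtb7b) and those of erythroid cells and platelets 1 of 6 lower (Car2), both in the authors' deposited table.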

How the data were processed

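Sorted splenic cells of 12 samples were sequenced, and the CD8 T cell table (2 WT, 2 cTKO mice) was analysed here. STAR and DESeq2 were used, with builds mm10 and GRCm38.p6, per the submitters' processing notes. For annotation, counting tool, strand and version, the entry is: not given in the sources used here. Thus reads of overlapping or antisense genes cannot be told apart. Per the file headers, the mean over libraries is a signal that the authors scaled by size factors. The authors deposited for each gene a log2 fold change with standard error, a test score (their ratio, within 2.17e-08), a p-value and an adjusted p-value, all used unchanged. Direction was read as cTKO over WT because the H1 genes are negative, since the header does not state it. Genes with a mean under 3.45 have no adjusted p.

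Each mean is a sum of whole reads times the worth of 1 read of each library. Sets of whole reads were tried in a negative binomial model of 2 groups, with the dispersion set by the standard error, and a set was kept when the model gave back the fold change (largest difference 3.24e-09). This gave 1 solution for 17939 of 17954 genes with a mean under 10000 (99.92%). The recovered reads number 15209902 and 10272211 in WT and 13656314 and 9397147 in cTKO and hold 72.8% of all normalized reads. They are recovered from rounded values, not read from a count table. They were used for values per library and, as an alternative, in limma 3.58.1 (voom, R 4.3.3, Benjamini-Hochberg adjustment over all genes), also without each library and, chosen after seeing the data, without each library's trend with exon length. In a fit without a library the lone library of a genotype is assumed to vary like the pair. The recovery and the limma fit on all libraries were each tested on simulated data. Exon lengths are from GENCODE M21 (GRCm38), positions and promoters from RefSeq (GRCm38.p6).

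Genes were called at the authors' adjusted p under 0.05. Other settings were thresholds of 0.01 and 0.1, no filter on the mean, a mean of at least 10, and fold changes re-centred on genes with a mean of at least 100. Members and lists (6 further pathway lists, cell cycle, early response and handling, 6 marker lists) were chosen with earlier results of these data known. All members are accounted for, with reads per library for those called and those that define a role. Of the 6 further pathway lists the called genes are named, up to 20 by p. A called gene of these lists is not reported here. For the cell cycle and early response lists counts are given in place of names, and of the called natural killer markers only some are named. With 2 mice per genotype, p-values cover the spread between these mice only, and sex is balanced but was not modelled in limma.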

Additional observations from a re-analysis of the deposited data

How the results depend on the processing

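Of the 40 members, 9 were higher and 1 lower in the authors' deposited table. The higher count was 5 at an adjusted p under 0.01, and between 3 and 14 with limma when 1 library was left out: 3 without the larger WT library, 3 without the smaller WT library, 4 without the larger cTKO library and 14 without the smaller. In these 4 fits the log2 fold change ran from 2.64 to 4.39 for Cdkn1a and from 5.60 to 6.09 for Eda2r. With a threshold of 0.1 the higher count was 11, with no filter on the mean 7 and re-centred 9. With limma on all libraries it was 6 and with the length trend removed 7. The shares of all tested genes called higher in these 5 settings were 12.6%, 6.4%, 11.4%, 9.12% and 10.4%. The lower count was between 0 and 2 when 1 library was left out. It was 0 in 3 of these limma fits, in which Sesn1 alone had an unadjusted p under 0.05, and 1 in the other settings. No called member changed sign. Of the further pathway genes, 10 were higher and 5 lower. At a threshold of 0.01 these were 2 and 1, at 0.1 they were 17 and 8, and with limma 5 and 2. Of all tested genes, 6.35% and 1.77%, 12.6% and 5.98%, and 9.12% and 2.52% were called in these 3 settings. Re-centring left 2 lower, and removal of the length trend 1 lower. With 1 library left out they ran from 0 to 25 higher and from 0 to 18 lower. The count of 0 was without the larger WT library, where limma had 11 higher and 1 lower at an unadjusted p under 0.05, and 25 and 18 were without the smaller cTKO library. The shares of all tested genes called were also at their highest without the smaller cTKO library. No paired analysis was possible because the table has no columns per sample, so no label ties a recovered library to a mouse or its sex. The reads limit Perp, Plk2 and Eda2r most.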
